A study of Homo sapiens with 14 samples.

Results

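Edited HGC-27 cells were followed over time after transfection, as methylation levels at CpG sites around the start of TEAD4. They make up 6 of the 14 libraries of the series, 2 each from days 3, 7 and 14, and were chosen by their titles alone. HGC-27 is a human gastric carcinoma cell line. Per the labels, the edited cells came from a derivative named Tr.HGC-27-KRAB and received the DNMT3AL domain with 7 guide RNAs designed against the TEAD4 promoter. No label says how the KRAB derivative was made or whether it is 1 clone. After transfection the cells were selected with doxycycline and blasticidin for about 3 days. The remaining 8 libraries, used here as background, are HGC-27 cells given the 7 guide RNAs alone on the same days (6 libraries) and untreated HGC-27 cells (2 libraries). All libraries carry the batch label 1. No label tells whether the replicates, or the 3 days, were separate cultures, so the p-values reflect variation among libraries that could be technical.

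DNMT3A places methyl groups on unmethylated CpG sites, and DNMT3L is a catalytically inactive partner that stimulates it. KRAB is a repressor domain that recruits the KAP1 corepressor and, through it, enzymes that modify histone H3. Once a CpG is methylated on both strands, DNMT1 with UHRF1 can copy the mark to the new strand at each cell division, so that methylation can outlast the enzyme that placed it. TEAD4 itself is a transcription factor with a TEA domain, through which it binds DNA, and it works with the coactivators YAP and TAZ.

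TEAD4 spans 2959397 to 3040676 on chromosome 12 (GRCh38) and lies on the forward strand. Sites were divided by position. The 64 sites upstream of the start ran from 2958885 to 2959377, and 36 sites followed directly after it, from 2959401 to 2959590. A second run of 38 sites lay from 2959762 to 2960007, 365 to 610 bp into the gene. The third run, of 4 sites, lay from 2960239 to 2960277, and 15 sites of the far runs lay from 2963587 to 2964284. The uncharacterised long non-coding RNA gene LOC124902859 covers 138 of the sites. Positions within exons, introns or UTRs were not analysed here. In all there were 142 sites near the start and 15 far from it. Of these, 131 were below 10% in untreated cells (low sites) and 18 were above 90% in every library.

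The third run can be shown in its sequence. RefSeq's promoter table (GRCh38.p14) holds a window across the start of LOC124902859, which is on the reverse strand. That gene spans 2957598 to 2960048, so the lower end of the window lies inside it. The window is chr12:2959999-2960298 and is printed as the forward strand, 5′ to 3′. Capitals mark the CpG dinucleotides with a deposited value: the last site of the second run, then the 4 sites of the third run.
LOC124902859 window: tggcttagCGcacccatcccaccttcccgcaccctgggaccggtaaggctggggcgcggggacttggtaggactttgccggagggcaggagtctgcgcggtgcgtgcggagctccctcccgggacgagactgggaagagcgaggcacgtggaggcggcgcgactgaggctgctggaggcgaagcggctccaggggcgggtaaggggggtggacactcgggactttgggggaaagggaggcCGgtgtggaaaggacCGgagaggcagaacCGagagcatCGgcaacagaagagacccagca
The window holds 25 CpG dinucleotides, of which 5 have a value and 20 are not among the listed positions. A level of the third run thus describes its 4 measured sites and not the whole window.

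Before the days are compared, 2 edited libraries need naming. In day 3 replicate 2, the 33 low sites from 2959403 to 2959566 averaged 38.6%, against 9.21% in day 3 replicate 1 and 10.3 to 12.7% on the later days. It was therefore 3.03 times the next highest library there. In day 14 replicate 1, the 56 low sites upstream of the start averaged 6.18%, while day 14 replicate 2 had 18.4%, a ratio of 2.985. Further down that library had 38.3% in the second run, where replicate 2 had 36.04%, and 17.4% in the third run, where replicate 2 had 25.45%. It was the lower of the pair at 61 of 64 sites upstream and at 4 of 4 in the third run. Day 3 replicate 2 was above replicate 1 at all 131 low sites, not only directly after the start: it had 27.0 against 17.1% upstream, 28.5 against 15.7% in the second run and 19.6 against 10.6% in the third run. The part of both libraries in the differences between days was not tested other than by leaving the libraries out.

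Over all sites the edited libraries had 23.3 and 37.03% on day 3, 34.2 and 32.8% on day 7, and 28.3 and 32.7% on day 14. The day 3 pair spanned the levels of both later days, so the whole-region mean does not separate the days. No single site passed limma either. The fit used log2((percent + 0.1)/(100 − percent + 0.1)) over all sites and the 14 libraries, with Benjamini-Hochberg adjustment. It called 0 sites from day 3 to day 7, 0 from day 7 to day 14 and 0 from day 3 to day 14, each 0% of the sites in either direction. At an unadjusted p under 0.05 there were 2, 4 and 2 sites, and limma on untransformed percent also called 0 in each (31, 10 and 34 unadjusted). The 2 scales differed in how near they came: limma's lowest adjusted p was 0.899, 0.994 and 0.894 on log2 odds. On untransformed percent it was 0.0509, 0.353 and 0.0877. What follows describes levels against the spread of the replicates. A site is counted as a gain, or as a loss, when both libraries of the later day lay above, or below, both of the earlier day and the means were at least 5 percentage points apart. These counts are no test.

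The clearest separation of days was in the second run. Its mean was 15.7 and 28.5% on day 3, 41.5 and 39.4% on day 7, and 38.3 and 36.04% on day 14. Neither later day overlapped day 3, and the day 14 libraries lay just below those of day 7. Day 7 was thus 18.3 points above day 3, larger than the pooled SD of 6.50 points, and day 14 was 3.26 points below day 7, against a pooled SD of 1.53. The exact permutation test among the 3 days, two-sided over the 6 libraries, gave p = 0.0667. This is the smallest p that the design allows (adjusted over 7 site groups, 0.467), so it could not have passed 0.05. Leaving out day 3 replicate 1 narrowed the difference between days 3 and 7 to 11.9 points, and leaving out day 3 replicate 2 widened it to 24.8. Over all sites 44 were gains from day 3 to day 7 (28%) and 2 were losses (1.27%). The second run held 29 of the 44 among its 38 sites, the sites upstream 12 of 64 and the third run 3 of 4. Without day 3 replicate 2 the 44 became 69, of which 31 lay in the second run and 34 upstream. Without day 3 replicate 1 there were 34 gains, 6 of them upstream, and 45 losses, 35 of the losses directly after the start.

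The 5 largest gains between days 3 and 7 were all in the second run. CpG 2959772, the second site of the run, had 22.9 and 44.0% on day 3, 78.9 and 69.0% on day 7, and 61.4 and 56.0% on day 14. Its difference of 40.5 points was 2.57 ± 1.22 (SE) as a log2 odds difference (limma adjusted p = 0.899). CpG 2959921, the highest low site on each day, had 38.7 and 62.5%, then 90.2 and 82.9%, then 79.2 and 75.5%. Its neighbour CpG 2959923 had 33.2 and 57.6%, then 86.4 and 76.8%, then 74.1 and 70.1%. At these sites the order of the days was the same: day 3 lowest, day 7 highest and day 14 between, with no overlap between the days.

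CpG 2959979 had 32.8 and 58.4% on day 3, 85.7 and 77.6% on day 7, and 77.3 and 73.8% on day 14. CpG 2959902 was 34.1 points higher on day 7 than on day 3. Of the 38 sites, 31 had both day 3 libraries below all 4 later ones. In 16 of these the day 14 libraries also lay between those of day 3 and day 7 without overlap. A close neighbour could differ much in level. CpG 2959806 had 3.43 and 7.00% on day 3, 18.9 and 11.1% on day 7, and 15.3 and 14.6% on day 14. CpG 2959804, the site before it, had 15.2 and 33.8%, then 60.5 and 53.2%, then 49.3 and 43.7%.

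**Figure D1:**
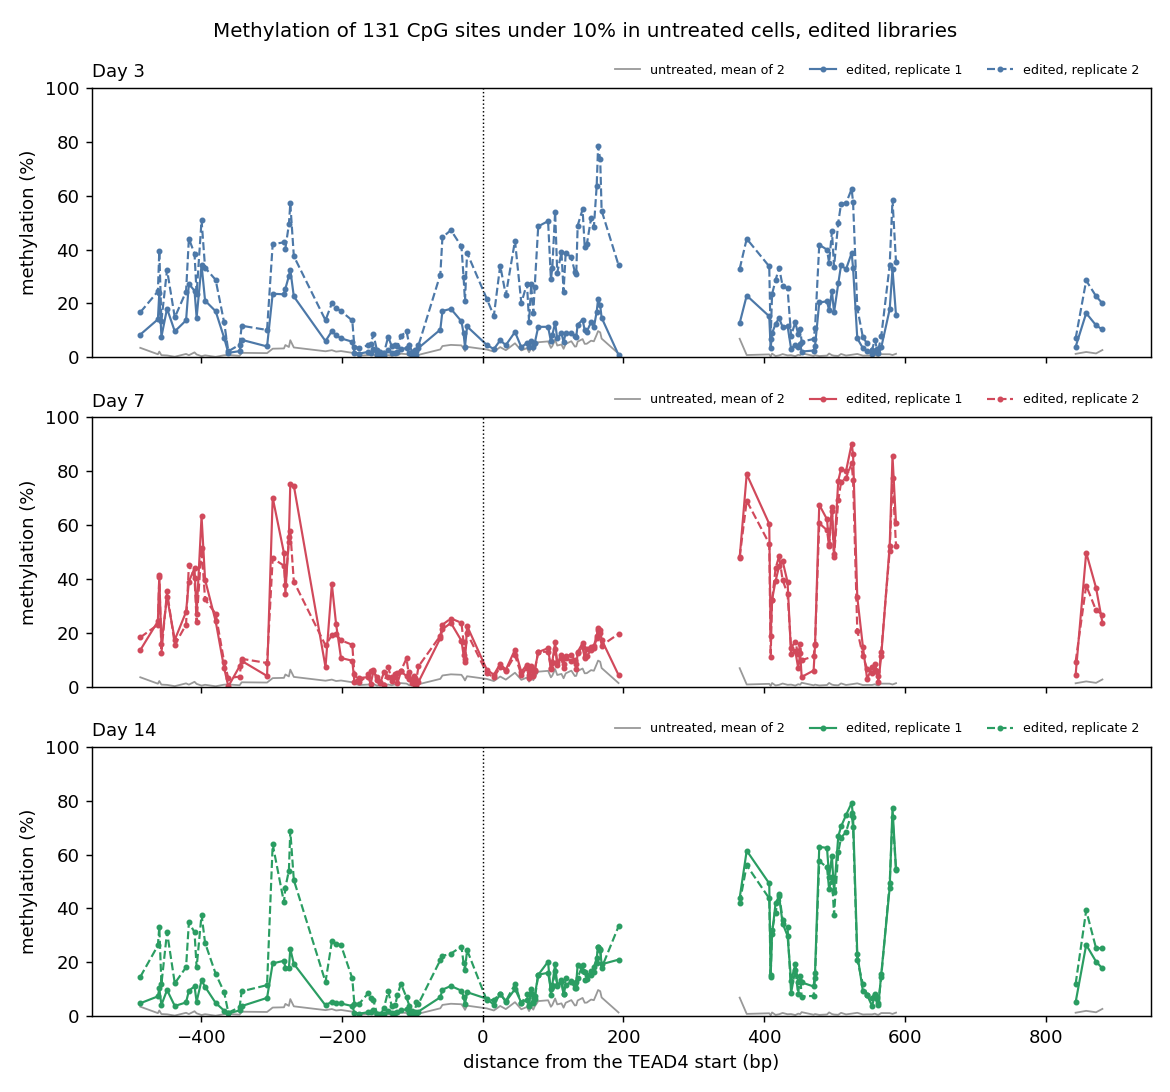
Methylation (%) of the 131 low sites against distance from the TEAD4 start (bp), 1 panel per day. Solid and dashed lines are edited replicates 1 and 2, the grey line is the mean of the untreated libraries and the dotted line is the start. CpG 2959921 at 524 bp is a peak on each day, with 38.7 to 90.2% across the 6 libraries. Of the sites that were a local maximum in any library, 7 of 13 in the second run, 6 of 15 directly after the start and 4 of 25 upstream were one in all 6.

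From day 3 to day 14 the second run was 15.1 points higher on day 14 (pooled SD 6.51), or 8.68 points without day 3 replicate 1 and 21.5 without day 3 replicate 2. Over all sites 30 were gains (19.1%), each of them in this run, and 1 was a loss (0.637%), upstream. The gains were 76 without both libraries named above. The losses were 60 without day 3 replicate 1 and 35 without day 14 replicate 2. CpG 2959979, CpG 2959875, CpG 2959984, CpG 2959886 and CpG 2959921 led, with differences of 29.96, 29.1, 29.0, 28.5 and 26.7 points (limma adjusted p = 0.894 for each). CpG 2959875 had 20.4 and 41.8% on day 3 and 62.8 and 57.6% on day 14. CpG 2959984 had 15.5 and 35.3% on day 3 and 54.5 and 54.4% on day 14. At all 5 sites both libraries of day 14 lay above both of day 3.

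Between days 7 and 14 the second run kept most of its height. Among its 35 low sites with a day 7 mean of at least 5%, the day 14 mean was a median of 93.9% of the day 7 mean (range 79.4 to 147%). Of these, 0 were below 50% and 7 were above 100%. Nevertheless, 13 of the 38 sites were counted as losses, out of 29 losses over all sites (18.5%), beside 1 gain (0.637%). Without day 14 replicate 2 the losses over all sites were 48, and without day 14 replicate 1 they were 28 beside 12 gains. The largest difference in the run was at CpG 2959772, at -15.2 points. The 3 low sites with the highest day 14 means were CpG 2959921, at 77.4%, CpG 2959979, at 75.6%, and CpG 2959923, at 72.1%, and the same 3 were the highest on day 7.

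The third run had 10.6 and 19.6% on day 3, 28.7 and 25.53% on day 7, and 17.4 and 25.45% on day 14. Days 3 and 7 did not overlap (a difference of 12.01 points, pooled SD 4.74). The difference was 7.54 points without day 3 replicate 1 and 16.5 without day 3 replicate 2. Day 14 overlapped day 3, and its higher library lay just under the lower one of day 7 (25.45 against 25.53%). CpG 2960254, its highest site, had 16.4 and 28.5%, then 49.8 and 37.6%, then 26.5 and 39.3%. CpG 2960239, its lowest, had 3.91 and 7.01%, then 4.49 and 9.32%, then 5.22 and 11.998%. The sites are 15 bp apart, as the sequence above shows, and the lower site stayed below the higher one in every library. Day 14 minus day 7 was a difference of -5.68 points that became -1.67 without day 14 replicate 1 and -9.68 without replicate 2.

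Upstream of the start the days could not be separated, because replicates of 1 day differed as much as the days did. The 64 sites averaged 17.1 and 27.0% on day 3, 26.6 and 24.8% on day 7, and 13.5 and 25.2% on day 14 (exact permutation p among days = 0.667). Day 14 minus day 7 was -6.32 points (pooled SD 5.93), but -0.46 points without day 14 replicate 1 and -12.2 points without replicate 2. Of the 64 sites, 15 were counted as losses from day 7 to day 14. Over all sites 29 were losses (18.5%), with 13 among the 38 sites of the second run. Losses were thus not particular to the upstream sites. Of the 15 upstream losses, 11 were still counted without day 14 replicate 1, with CpG 2959320 added. Without replicate 2, 36 sites were counted. Without replicate 1 another 9 sites were gains, so the upstream sites did not all lie to 1 side.

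The largest of these losses lay between -459 and -247 bp. CpG 2958998, at -399 bp, had 34.3 and 50.9% on day 3, 63.3 and 51.5% on day 7, and 13.3 and 37.7% on day 14, a difference of -31.9 points from day 7 (limma adjusted p = 0.994, unadjusted 0.0437). CpG 2958988 had 44.0 and 40.5% on day 7 and 11.1 and 31.2% on day 14. At CpG 2958980 the levels were 39.1 and 45.2%, then 9.48 and 34.8%, and at CpG 2958938 they were 40.7 and 41.6%, then 10.3 and 33.2%. In each case replicate 1 of day 14 held the lower value by a wide margin, while replicate 2 lay nearer to day 7.

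CpG 2959150, which was above the limit for low sites in untreated cells, had 86.7 and 76.9% on day 7 and 43.9 and 75.5% on day 14. CpG 2959018 was the single loss from day 3 to day 14, with 17.1 and 28.8% on day 3 and 4.945 and 15.8% on day 14. By 100 bp windows, the low sites from -500 to -401 bp had 28.3 and 27.95% on day 7 and 7.13 and 23.2% on day 14, whereas those from -300 to -201 bp had 44.0 and 35.2%, then 14.0 and 42.1%. The former window was lower in both libraries on day 14, while in the latter the days overlapped. The 16 low sites from -200 to -101 bp had the lowest means of any window on each day, 1.64 to 6.06% across the 6 libraries. CpG 2959252 in that window, the lowest upstream site, stayed between 0.397 and 1.93%.

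The first sites after the start had the opposite order of means, and it rested on 1 library. The 36 sites averaged 12.97 and 40.9% on day 3, 14.4 and 14.5% on day 7, and 16.7 and 16.9% on day 14. Day 7 was 12.5 points below day 3, within the pooled SD of 13.96 points, and it was 1.48 points above day 3 without day 3 replicate 2. Days 7 and 14 differed by 2.34 points with a pooled SD of 0.0666 points, since the replicate means of each day nearly coincided. The sites themselves did not: on day 7 replicate 2 was higher at 10 of 36 sites. Without CpG 2959590 the 33 low sites averaged 11.1 and 10.3% on day 7 and 12.7 and 12.3% on day 14. The pooled SD of the means thus understates how far the replicates differed. At CpG 2959561, the highest low site here on day 3, the levels were 21.6 and 78.4%, then 21.2 and 21.9%, then 25.8 and 25.8%. CpG 2959564 had 19.3 and 73.5%, then 21.2 and 19.9%, then 24.5 and 24.8%. CpG 2959463, the lowest, had 3.96 and 13.2%, then 4.40 and 3.25%, then 4.24 and 3.65%. Apart from day 3 replicate 2, the libraries thus differed little at these sites. Without that library the means over the 36 sites rose in order of day, but day 3 then rests on 1 library. At 31 of the 36 sites the day 14 mean was above that of day 7.

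Among the largest differences from day 7 to day 14 here were 4.54 points at CpG 2959490, 4.33 at CpG 2959561, 4.17 at CpG 2959542 and 4.11 at CpG 2959564, all under the limit of 5 points. The single gain was CpG 2959590, the last site of this group, with 0.947 and 34.3% on day 3, 4.39 and 19.6% on day 7, and 20.99 and 33.3% on day 14 (limma adjusted p = 0.994). It did not follow its neighbours, the nearest low one of which is CpG 2959566. The 2 losses from day 3 to day 7 were at sites already near 50% in untreated cells. CpG 2959377 had 59.7 and 63.5%, then 48.6 and 58.7%, and CpG 2959401 had 62.2 and 64.5%, then 50.7 and 60.9%.

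**Figure D2:**
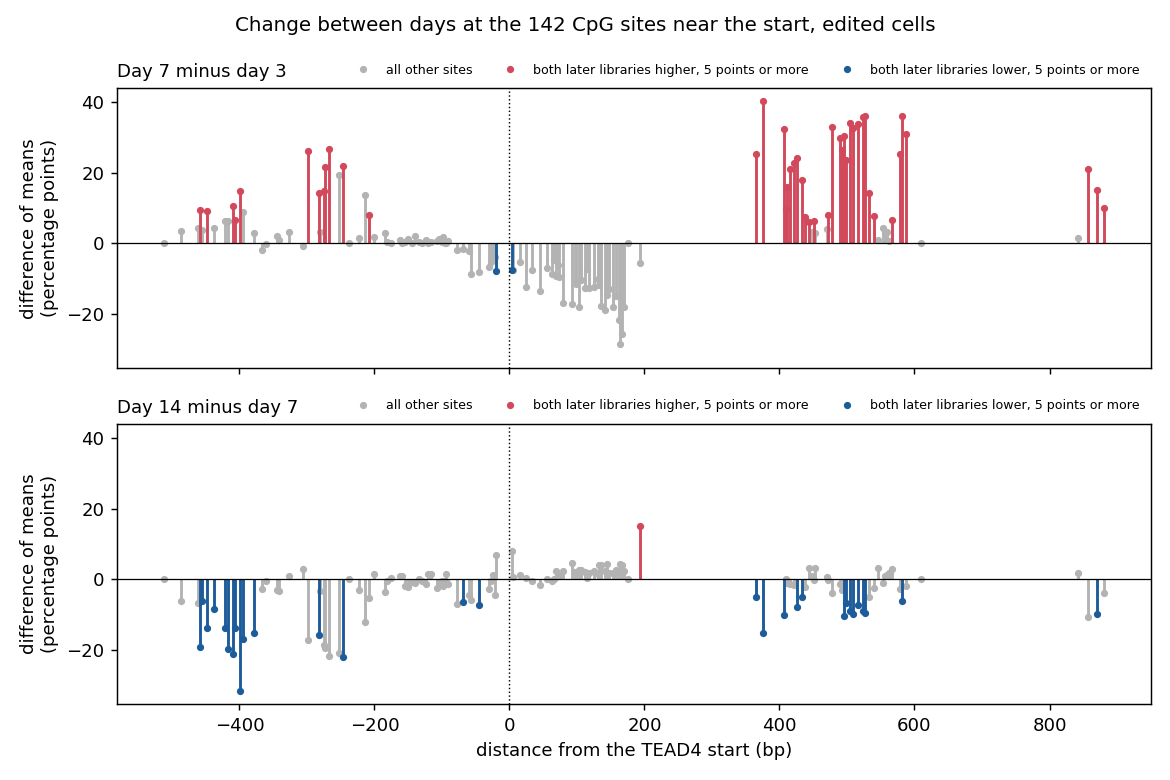
Difference of day means (percentage points) at the 142 sites near the start, against distance from the start (bp). Red and blue sites are those counted as gains and losses, with libraries that do not overlap and means at least 5 points apart. From day 3 to day 7 there are 44 gains and 2 losses, and from day 7 to day 14 there are 29 losses and 1 gain.

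Taken site by site, 21 sites were gains followed by losses, 23 were gains that then stayed within the spread, 8 were losses on day 14 only, 2 were losses on day 7 only, 1 was a gain on day 14 only, and 102 stayed within the spread at both steps. Both steps use the same 2 libraries of day 7, so a high level in them favours a gain followed by a loss. A site within the spread is not shown to be unchanged, given 2 libraries a day. The 15 sites of the far runs were among the 102, with run means of 95.9 to 97.2% in the 6 libraries. Their largest difference was at CpG 2964125, with 93.4 and 91.1% on day 3, 93.6 and 86.6% on day 7, and 87.1 and 88.6% on day 14. The other named far sites, CpG 2963628, CpG 2963643, CpG 2963792, CpG 2964176 and CpG 2964225, had differences between days of at most 1.35 points. CpG 2958885, CpG 2959572 and CpG 2960007, the highest sites of their groups, were at 99.7 to 100% throughout, so they had no room to gain.

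Set against the controls, both edited libraries lay above all 8 control libraries at 85 sites on day 3 (54.1%), 122 on day 7 (77.7%) and 123 on day 14 (78.3%). In the second run the numbers were 9, 36 and 36 of 38, and the same 36 sites held on days 7 and 14. The day 3 number there goes with gRNA-only libraries of that run between 3.25 and 17.5%, the highest being day 3 replicate 1. Upstream the numbers were 56, 55 and 52 of 64, and 49 sites held on all 3 days. In the third run all 4 sites were above the controls on each day. Directly after the start the numbers were 16, 27 and 31 of 36, and 14 sites held on all 3 days. Over those 36 sites the untreated libraries averaged 4.41 and 12.9%, against 12.97% in edited day 3 replicate 1. On day 14 both edited libraries were still above all 8 controls at 120 of the 131 low sites. Low sites were picked by their level in the untreated libraries, which are among these controls, so that count is favoured by the choice. The edited cells also differed from the controls in coming from the KRAB derivative. What part this had in the excess was not tested.

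The shape of the profile was compared between libraries apart from its height. The relation was measured as Pearson's r across sites, which share a library and its amplifications and are not independent, so no p is given. Over the 37 low sites of the second run, r between the 15 pairs of libraries lay between 0.965 and 0.995. Pairs of 1 day had 0.986 to 0.993. The lowest values, 0.965 to 0.972, were those of day 3 replicate 1 with the libraries of days 7 and 14. The slope through the origin was 1.90 for day 7 on day 3 and 0.897 for day 14 on day 7. The libraries of this run thus differed in height while their profiles correlated closely.

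Each site's level can also be divided by its library's mean over the low sites of its run. CpG 2959921 stood at 2.16 to 2.90 times the mean of the second run in the 6 libraries, CpG 2959979 at 2.06 to 2.45 times and CpG 2959772 at 1.63 to 1.98 times. The low points kept their place as well: CpG 2959806 stood at 0.26 to 0.47 times the mean, and CpG 2959959, the lowest site, at 0.05 to 0.15 times. Of the 37 sites, 16 were above the run's mean in all 6 libraries and 18 below it in all 6. Of 13 sites that were a local maximum in at least 1 library, 7 were one in all 6: CpG 2959772, CpG 2959841, CpG 2959848, CpG 2959893, CpG 2959921, CpG 2959954 and CpG 2959979. The other 6 were not shared. The highest and lowest sites were close together, since CpG 2959959 (1.63 to 5.08%) lies 36 bp after CpG 2959923 and 20 bp before CpG 2959979.

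**Figure D3:**
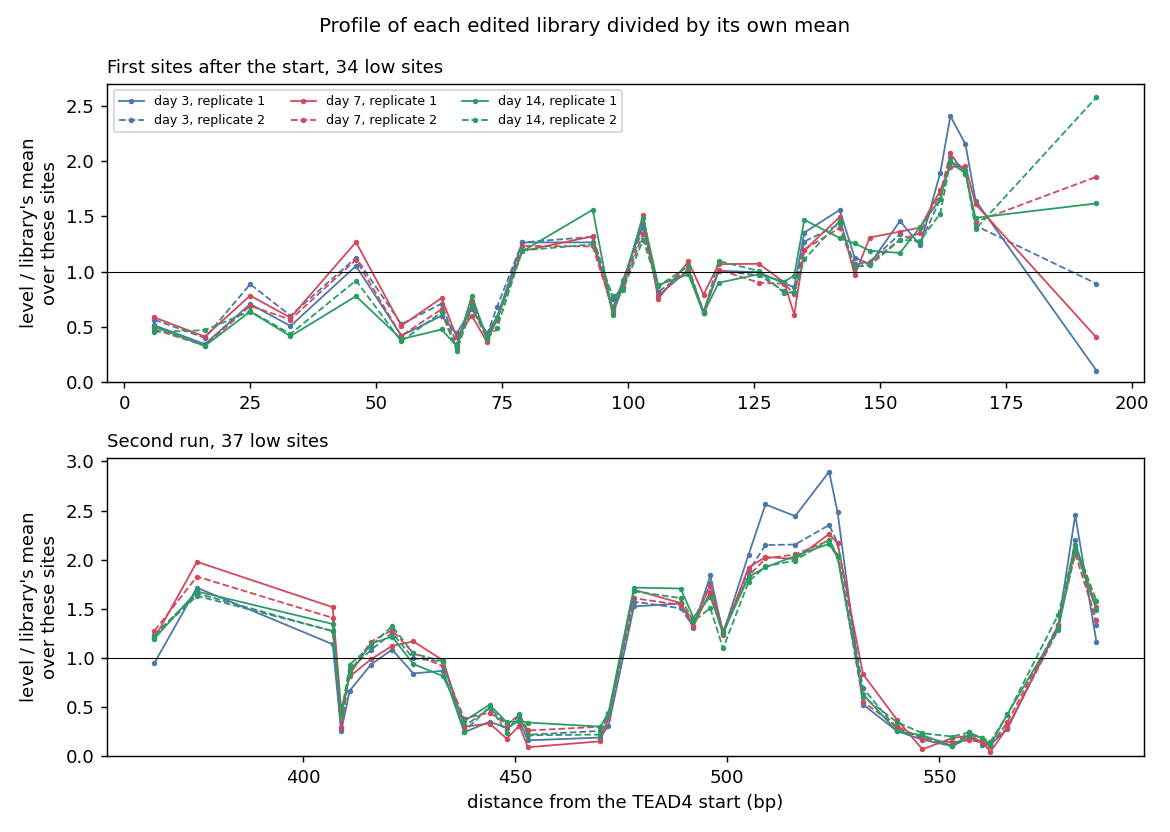
Level of each low site divided by its library's mean over the low sites of the first stretch after the start (top) and of the second run (bottom), against distance from the start (bp). Lines are the 6 edited libraries. In the second run CpG 2959921, at 524 bp, reached 2.16 to 2.90 times the mean, and above, CpG 2959590, at 193 bp, ran from 0.11 to 2.58 times.

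Directly after the start the profiles also correlated, apart from the last site. Over 33 low sites, without CpG 2959590, r between libraries lay between 0.929 and 0.991, although day 3 replicate 2 was 4.19 times as high as day 3 replicate 1. With CpG 2959590 it ran from 0.613 to 0.963, because that site stood at 0.11 to 2.58 times its library's mean. It was left out after its values were seen. Upstream, over 56 low sites, r lay between 0.855 and 0.984. CpG 2959124, a maximum in all 6 libraries, stood at 2.86 to 4.04 times the upstream mean, with 32.6 and 57.2%, then 75.3 and 57.7%, then 25.0 and 68.8%. CpG 2959129 kept its place less well, at 1.88 to 3.89 times, the highest value being that of day 7 replicate 1 (74.7%).

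Across the groups, the profile of day 3 depended on the library. Over the 131 low sites together, r was 0.748 between the means of days 3 and 7 and 0.957 between those of days 7 and 14. Day 3 replicate 2 had r of 0.599 to 0.661 with the 4 later libraries. Day 3 replicate 1 had 0.892 and 0.894 with those of day 7, and 0.709 and 0.884 with those of day 14. Between replicates of 1 day r was 0.816 on day 3, 0.972 on day 7 and 0.859 on day 14. Over these pooled sites day 3 replicate 1 was thus closer to both day 7 libraries than to its own replicate. Over the 142 sites near the start it had 0.849 with its replicate, and 0.820 and 0.864 with day 7 replicates 1 and 2. In the second run alone it was closer to its replicate (0.986) than to those of day 7 (0.965 and 0.972). Of the 33 highest of the 131 low sites, 20 were shared by days 3 and 7 and 28 by days 7 and 14. On day 3 the 33 comprised 12 sites upstream, 11 directly after the start and 10 of the second run. By day 7 they comprised 12, 0 and 20, and on day 14 they comprised 7, 3 and 21. The 11 sites directly after the start go with day 3 replicate 2. Over the 142 sites near the start r between days 3 and 7 was 0.836, with 0.768 without day 3 replicate 1 and 0.847 without day 3 replicate 2. Over the 131 low sites together, level had no clear relation to the distance to the nearest measured neighbour (r from -0.063 to 0.035 on the 3 days). Within the groups r was -0.262 to 0.088 directly after the start, 0.181 to 0.238 in the second run and -0.038 to 0.002 upstream. Whether the groups differ in this was not tested.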

How the data were processed

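Targeted bisulfite amplicons were sequenced, per the labels' protocols. Trim Galore 0.6.7 and Bismark 0.23.1 on hg38 are listed in the submitters' processing notes. No source used here states how calls were turned into levels. The values deposited by the authors are percent methylation per CpG, written with decimal commas, at the same positions in each of the 14 libraries. Since they come without coverage, depth is unknown and counting error could not be computed. Any pair of libraries had 0 sites with the same value.

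Limma was fitted to log2 odds (offset 0.1) at all sites with 1 mean per group over 7 groups, and tested on simulated data. Region means were unweighted and compared by an exact permutation test (90 arrangements). Pairs of days carry no exact test, whose smallest p would be 0.333 with 2 libraries each. Runs were split at gaps above 100 bp. Named sites were, per comparison and direction, the 5 largest differences among sites past limma's threshold or, as none passed, among sites whose libraries do not overlap, with the highest and lowest site per group and the 3 highest low sites per day. Sites named beyond this (CpG 2959804, 2959806, 2959124, 2959129 and the shared maxima) were chosen after their values were seen. Members and site groups were chosen with earlier results of these data known. The 100 bp windows were added later. Software was limma 3.58.1 in R 4.3.3, and Python 3.11.15 with pandas 2.3.3, numpy 2.4.6, matplotlib 3.10.9 and scipy 1.17.1.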

Additional observations from a re-analysis of the deposited data

Results flagged for a closer look

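Outlying libraries were sought by the gap to the nearest of the other libraries relative to the whole range, over the 6 edited libraries and against Dixon's 95% critical value. The 6 libraries cover 3 days and are not 1 group, and 7 means and 35 sites were examined, of which chance exceeds the value in about 1 in 20. Sites of 1 stretch move together and are not separate findings. Edited day 3 replicate 2 stood apart in the mean of the 36 sites directly after the start, at 40.9%, with a gap of 0.861 of the range. The same library stood apart there at CpG 2959490 (50.6%), CpG 2959542 (40.97%), CpG 2959561 (78.4%), CpG 2959564 (73.5%), CpG 2959463 (13.2%) and CpG 2959572 (99.7%, the lowest of the 6). Edited day 14 replicate 2 was the lowest at CpG 2964176 in the far runs (95.9%). The cause was not tested.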

How the results depend on the processing

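Limma called 0 sites in each comparison of days under every alternative run: the 6 edited libraries alone, a replicate block, an offset of 1, untransformed percent, omission of the 18 sites above 90%, and each library left out. Of 168 mean differences recomputed, 9 moved by more than the replicate spread and 22 turned sign. With 2 libraries a day, leaving out 1 library cannot move a difference past that spread, and the replicate block leaves it unchanged. The 9 came from the median, the log2 odds scale or both named libraries left out, so the small number is no sign of stability. Of 42 recomputed counts of gains and losses, 20 moved by over 1.5 times, and of 33 measures of shape 5 moved. The 63 recomputed exact p-values ran from 0.0667 to 1, and without day 3 replicate 1 the all-site means of both later days lay below day 3 (-3.55 points for day 7, -6.55 for day 14). The cause of these shifts was not tested beyond the libraries left out.

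With the median over sites, day 7 minus day 3 was -4.06 points over all sites, and directly after the start day 14 lay 2.06 points above day 7 (2.41 points with the mean taken on the log2 odds scale and converted back to percent). Leaving out each library gave 34 to 69 gains and 2 to 45 losses from day 3 to day 7, 2 to 12 gains and 28 to 48 losses from day 7 to day 14, and 25 to 45 gains and 2 to 60 losses from day 3 to day 14. The 45 and 60 losses came without day 3 replicate 1, which leaves replicate 2 alone on day 3. The single gain from day 7 to day 14 became 2, 6, 12 and 5 without day 7 replicates 1 and 2 and day 14 replicates 1 and 2, and the 2 losses from day 3 to day 7 became 5 without day 7 replicate 2. A minimum difference of 10 points gave 0 losses from day 3 to day 7 and 15 from day 7 to day 14. A minimum of 2 points gave 21 gains from day 7 to day 14 and 2 losses from day 3 to day 14.

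Without both day 3 replicate 2 and day 14 replicate 1, chosen after the values were seen, gains were 69 from day 3 to day 7, 12 from day 7 to day 14 and 76 from day 3 to day 14, with 0 losses from day 3 to day 14. Day 14 then lay above day 3 by 9.40 points over all sites, 8.15 upstream, 3.88 directly after the start, 14.8 in the third run and 10.9 over low sites, and by -1.26 in the far runs.

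Leaving out each library, or both of these, gave differences of day 14 minus day 3 of -6.55 to 9.40 points over all sites, -8.55 to 8.15 upstream, -24.1 to 3.88 directly after the start, 1.87 to 14.8 in the third run, -1.26 to -0.417 in the far runs and -7.33 to 10.9 over low sites. The second run stayed above 0 at 8.68 to 21.5 points when 1 library was left out.

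Pearson's r over the low sites was 0.748 between days 3 and 7 and 0.741 between days 3 and 14. Over the 142 sites near the start, leaving out each library gave r of 0.768 to 0.847, 0.909 to 0.978 and 0.800 to 0.875 for days 3 and 7, 7 and 14, and 3 and 14.

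Replicates share a number in the labels, but nothing says that the number marks a shared culture. The difference between replicates correlated across all sites by -0.163 (days 3 and 7), -0.294 (days 7 and 14) and 0.0191 (days 3 and 14). The replicate block left limma's counts at 0, with 1, 1 and 1 sites unadjusted, and left the mean differences as they were by construction.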

Other observations

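Sites at intermediate levels upstream of and at the start were not alike in how they compared with low sites nearby. CpG 2959145 had 32.2 and 55.3% on day 3, 81.4 and 44.7% on day 7, and 30.1 and 54.0% on day 14. Its highest and lowest values fell in the same libraries as those of the low site CpG 2959129. CpG 2959320 had 45.98 and 65.8% on day 3, 60.4 and 47.9% on day 7, and 49.1 and 45.1% on day 14. CpG 2959328, 8 bp on, had 46.7 and 66.7%, then 60.2 and 49.996%, then 49.4 and 47.6%, so the pair moved together from library to library. The low site CpG 2959352 nearby had 18.0 and 47.2%, then 23.7 and 25.4%, then 11.2 and 23.2%. Like the pair, it was highest in day 3 replicate 2, but its lowest value was in day 14 replicate 1. A further pair, CpG 2959377 and CpG 2959401, differed by less than 4 points within each library but had its lowest values, 48.6 and 50.7%, in day 7 replicate 1, where the other pair was above 60%. These sites were chosen after their values were seen.

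CpG 2959071 lay at 85.6 to 95.1% in the 6 edited libraries, between low sites on both sides: CpG 2959055 had 3.78 to 11.7% and CpG 2959091 had 4.02 to 11.5%.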
